A study of Mus musculus with 12 samples.

Results

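The coagulation and fibrinolysis factors are the proteins that form a fibrin clot, hold its formation in check and dissolve it. They were taken here as 32 named genes chosen by known function, namely 17 procoagulant genes, 8 anticoagulant genes and 7 fibrinolytic genes. All 32 were listed in the liver table of 14188 protein-coding genes, with 67 transcripts in all, and 16 of the 32 had 1 listed transcript. No filter on low values was applied, so every one of the 32 was tested.

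RNA was sequenced from 12 livers, 6 from PZH mice and 6 from control mice, each mouse being 1 sample. Both groups were male mice whose strain is written C57BL/8 in the sample labels and C57BL/6J in the study's methods. All 12 were 6 weeks old at the start, received CCl4 mixed with corn oil by intraperitoneal injection 2 times a week at 10 µl of the mixture per g of body weight, and were killed at week 8. The PZH group was also given Pien Tze Huang (PZH), a traditional Chinese medicine, by mouth every day at 0.25 mg per g, and the control group was given water in its place. CCl4 injures hepatocytes and, when repeated, leads to hepatic fibrosis. Livers of mice without CCl4 are not analysed here, so each value describes PZH against control within injured livers.

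Hepatocytes make most of the circulating clotting factors, their inhibitors and plasminogen, while endothelial cells supply von Willebrand factor, factor VIII, thrombomodulin and the endothelial protein C receptor. Thrombin cleaves fibrinogen to fibrin, thrombin bound to thrombomodulin activates protein C, which slows thrombin formation, and plasmin, made from plasminogen by its activators, digests fibrin. The fibrinogen genes are also classical targets of interleukin-6 in the acute phase response of the liver.

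Levels are given in FPKM (fragments per kilobase and per M of fragments mapped), which is a level per length. A gene was called higher or lower at a Benjamini-Hochberg adjusted p under 0.05 in limma, fitted to log2(FPKM + 1) over all genes, and log2 fold changes are PZH minus control on that scale. The 2-fold rule of the study, an absolute log2 fold change of 1 with an unadjusted P under 0.05, is given beside it. Its P came from limma here, and the study does not name its test. Calls by this rule may therefore differ from those of the study.

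The labelled tissue was checked against hepatocyte markers, of which Alb was measured at 33360.0 to 46361.7 FPKM in the PZH group and at 18015 to 29477 FPKM in the control group. The summed level of the 6 hepatocyte markers was 43982 to 59641 FPKM in the PZH group and 24683 to 39909 FPKM in the control group, and the ranges did not overlap. Most of this sum was Alb, with a mean of 38437 of 49973 FPKM with PZH and 24059 of 33327 FPKM in controls. Of these 6, 3 were higher and 1, Hnf4a, was lower. All 7 acute phase genes listed here (Saa1, Saa2, Hp, Orm1, Orm2, Lcn2 and Apcs) were lower in the PZH group, against 32.1% of all genes. Their median log2 fold change was -1.81. This list and the other marker lists were chosen with earlier results of these data known. The part of hepatocyte content and of the acute phase in the results below was not tested, and in bulk liver fewer cells of a type and less RNA per cell cannot be told apart. The depth was estimated from the step that low values of FPKM times transcript length matched most often, searched within fixed limits. It came out at 27.6 to 42.8 M fragments in the PZH group and 26.8 to 35.6 M in the control group. Only 1.98% to 2.51% of low values per mouse were whole multiples of that step. The depth, and the fragment numbers drawn from it below, are therefore uncertain.

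Of the 32 genes, 11 were higher in the PZH group, 8 were lower and 13 were not called. Over all genes of the table, 12.7% were called higher and 32.1% were called lower. The median log2 fold change of the 32 was 0.05 and that of all genes was -0.11, so the middle of the list lay slightly above the middle of the table. By the 2-fold rule 1 of the 32 was higher, against 1.52% of all genes, and 6 were lower, against 2.5%. With a median-ratio scale factor, described below, these counts were 3 higher and 3 lower. The values of the 2 groups did not overlap for 6 genes that were higher, against 6.46% of all genes, and for 7 that were lower, against 17.9%. Scaling each mouse by its median ratio to the other mice (the median-ratio scale factor) moved the median of all genes to -0.001 and changed the share of all genes called to 19.8% higher and 19.3% lower. On that scale 16 of the 32 were higher and 8 were lower.

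**Figure D1:**
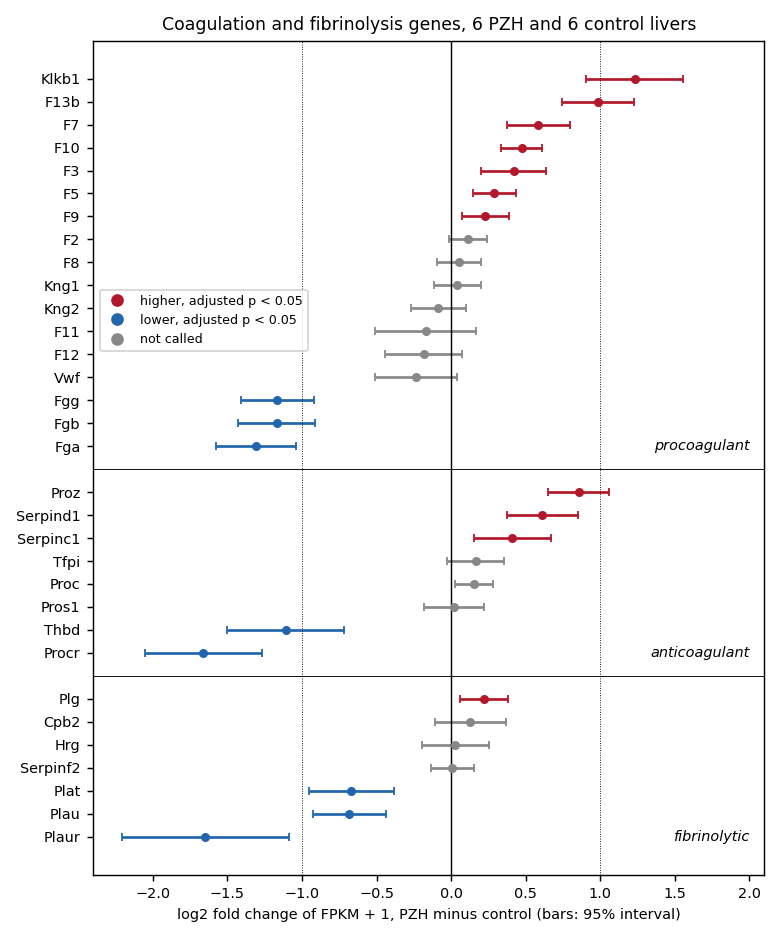
Log2 fold change of FPKM + 1 (x axis, PZH minus control) for each of the 32 genes (y axis), by class and ordered within it, with bars for the 95% interval and dotted lines at -1 and 1. Fga, Fgb, Fgg, Procr, Thbd and Plaur lie at or beyond the lower line, Klkb1 lies beyond the upper line, and 13 genes are grey because they were not called.

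The 17 procoagulant genes split into 7 that were higher (F3, F5, F7, F9, F10, F13b and Klkb1), 3 that were lower (Fga, Fgb and Fgg) and 7 that were not called (F2, F8, F11, F12, Vwf, Kng1 and Kng2). Their median log2 fold change was 0.06. Of all genes of the table, 12.7% were called higher and 32.1% were called lower. The 3 lower genes were the 3 chains of fibrinogen.

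Fga, which encodes the Aα chain of fibrinogen, was measured at 1419.8 to 1738 FPKM (median 1511) in the PZH group and at 2925 to 5250.0 FPKM (median 3856) in the control group. The mean was 2.52-fold lower with PZH (log2 fold change -1.31, SE 0.12, limma adjusted p = 1.56e-05). Every control mouse was above every PZH mouse, and Fga was the most abundant of the 32 genes in both groups. Fgb, which encodes the Bβ chain, was measured at 826 to 1033 FPKM (median 929.8) with PZH and at 1526 to 2729 FPKM (median 2088) in controls. It was 2.28-fold lower (log2 fold change -1.17, SE 0.12, limma adjusted p = 2.28e-05), again with no overlap. Fgg, which encodes the γ chain, was measured at 1101 to 1274 FPKM (median 1251) with PZH and at 2168 to 3589 FPKM (median 2763) in controls, and the log2 fold change was -1.17 (SE 0.11, limma adjusted p = 1.74e-05). The Fgg groups did not overlap either.

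The 3 chains summed to 3676 ± 234 FPKM (SD, n = 6) in the PZH group and to 8754 ± 1773 FPKM (SD, n = 6) in the control group. They made up 1.08% of all gene FPKM with PZH and 2.65% in controls. The other 29 genes together summed to 4056 ± 127 FPKM (SD, n = 6) with PZH and to 3587 ± 101 FPKM (SD, n = 6) in controls, so their total was higher in every PZH mouse than in every control mouse. As a share of all gene FPKM the 29 genes overlapped between the groups. PZH mouse 1 had 3975 of 370412 FPKM in them, a smaller share than control mouse 2 with 3745 of 332822. In FPKM the total of the list was thus higher with PZH without the 3 chains and lower with them. With the chains the list made up 2.27% of all gene FPKM with PZH and 3.73% in controls. The ratio of Fgg to Fgb was 1.34 ± 0.0906 (SD, n = 6) with PZH and 1.34 ± 0.067 (SD, n = 6) in controls. The ratio of Fga to Fgb was 1.69 ± 0.102 (SD, n = 6) with PZH and 1.86 ± 0.0684 (SD, n = 6) in controls, and these ranges overlapped. The 6 control mice stood in the same order for all 3 chains, with control mouse 1 highest and control mouse 6 lowest. The PZH mice did not keep 1 order. PZH mouse 2 was highest for all 3 chains, but PZH mouse 1 was lowest for Fga and next to the highest for Fgb and Fgg. The spread between control mice (coefficient of variation 19.4% to 21.4%) exceeded that between PZH mice (5.19% to 8.53%).

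**Figure D2:**
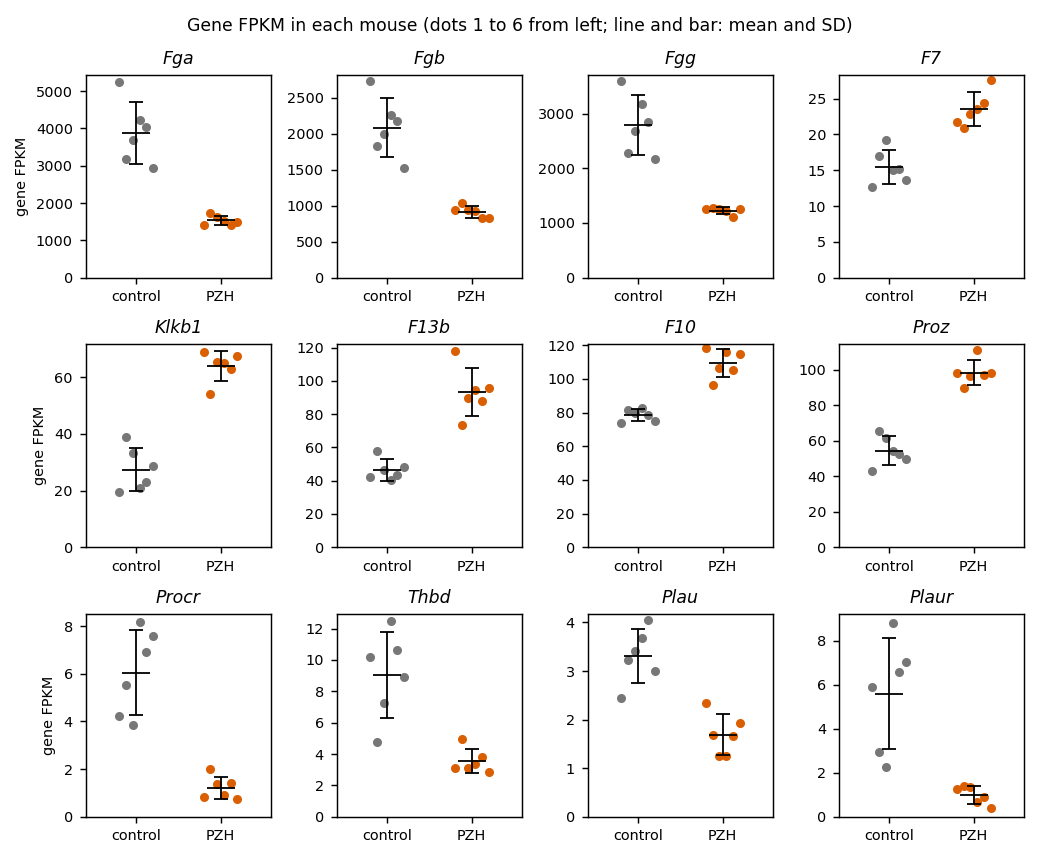
Gene FPKM (y axis, from 0, its own scale for each gene) in the 6 control mice (grey) and the 6 PZH mice (orange) for 12 genes, each dot 1 mouse in the order 1 to 6 from left to right, with the mean and SD in black. The groups are apart in every panel except Thbd, where PZH mouse 2 at 4.97 FPKM lies above control mouse 2 at 4.79 FPKM.

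The promoters of the fibrinogen genes are shown because the 3 genes lie side by side and moved together. Fgg (chr3:83007724-83015049, plus strand), Fga (chr3:83026076-83033627, plus strand) and Fgb (chr3:83040141-83049863, minus strand) are neighbours on chromosome 3 of GRCm38, with 11026 bases between Fgg and Fga, 6513 bases between Fga and Fgb and no other protein-coding gene between them. The sequences are from RefSeq (GRCm38.p6) and are written 5′ to 3′ on the strand of the gene. They run from 250 bases before the start site of the promoter set to 50 bases after it. The windows are chr3:83007474-83007773 for Fgg, chr3:83025903-83026202 for Fga and chr3:83049814-83050113 for Fgb. That start site is not always the first base of the gene, and for Fga, Klkb1 and Procr it lies downstream of it. Capitals mark 4 motifs searched on both strands, which are letters of the HNF1 motif, GTTAAT, the interleukin-6 response element CTGGGAA, the C/EBP motif TTGCNNAA and the AP-1 motif TGANTCA.

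Fgg: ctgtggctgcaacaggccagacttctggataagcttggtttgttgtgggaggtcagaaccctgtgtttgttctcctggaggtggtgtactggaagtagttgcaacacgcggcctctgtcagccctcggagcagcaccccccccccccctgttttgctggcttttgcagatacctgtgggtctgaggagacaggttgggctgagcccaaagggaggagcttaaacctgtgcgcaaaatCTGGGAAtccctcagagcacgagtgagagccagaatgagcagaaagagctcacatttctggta

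Fga: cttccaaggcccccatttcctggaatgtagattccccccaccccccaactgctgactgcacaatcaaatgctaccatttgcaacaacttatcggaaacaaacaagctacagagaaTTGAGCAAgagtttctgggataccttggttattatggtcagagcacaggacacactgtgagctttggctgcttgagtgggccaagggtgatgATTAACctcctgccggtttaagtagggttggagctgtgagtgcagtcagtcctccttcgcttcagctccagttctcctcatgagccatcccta

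Fgb: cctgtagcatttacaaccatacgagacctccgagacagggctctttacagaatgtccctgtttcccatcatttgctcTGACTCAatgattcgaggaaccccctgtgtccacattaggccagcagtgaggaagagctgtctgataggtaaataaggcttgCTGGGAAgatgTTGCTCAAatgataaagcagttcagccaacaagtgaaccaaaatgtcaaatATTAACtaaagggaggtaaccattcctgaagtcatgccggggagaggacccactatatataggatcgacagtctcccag

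Counted from the start site of the promoter set at 0, Fgg held the interleukin-6 response element at -13. Fgb held it at -91, beside a C/EBP motif at -80, an AP-1 motif at -173 and HNF1 letters at -29. Fga held a C/EBP motif at -135 and HNF1 letters at -43, and the letters CTGGGAA were not in its window. Promoters were at hand for 25 of the 32 genes, with 26 promoters in all. The interleukin-6 response element was in 5 of these 26 and in 11.1% of all 32851 promoters, the HNF1 letters in 5 and in 7.1%, the C/EBP motif in 11 and in 10.8%, and the AP-1 motif in 6 and in 7.81%. Of the 5 genes with the interleukin-6 response element, Fgb and Fgg were lower, F9 was higher and Kng2 and Tfpi were not called. A match of these letters is a description and not a binding site.

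The transcripts of Fga and Fgg differed in the size of their change. Fga-201, the transcript with 5 exons and 2083 bases, was measured at 1202 to 1521 FPKM with PZH and at 2724 to 4956 FPKM in controls (log2 fold change -1.44, SE 0.13, limma adjusted p = 9.5e-05). Fga-202, with 6 exons and 2587 bases, was measured at 210.4 to 271 FPKM with PZH and at 202 to 329 FPKM in controls, and these ranges overlapped (log2 fold change -0.19, SE 0.12, limma adjusted p = 0.339). The share of Fga-201 in the gene was 84.8% ± 1.78 (SD, n = 6) with PZH and 93.0% ± 1.08 (SD, n = 6) in controls (exact permutation test, two-sided, 924 labellings, p = 0.0022, the smallest value the test can give). Fgg-201 had a log2 fold change of -1.05 (SE 0.09) and Fgg-202 of -1.37 (SE 0.18), and neither overlapped between the groups. The share of Fgg-201 in the gene was 67.1% ± 3.13 with PZH and 62.1% ± 4.03 in controls (SD, n = 6 each, exact permutation test, two-sided, p = 0.0433), and this difference lost its p under 0.05 in 8 of 12 comparisons that left out 1 mouse, with p up to 0.0931. Shares were compared for the 16 genes with more than 1 listed transcript and their p-values are unadjusted. The comparison of shares was chosen after values had been seen.

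**Figure D3:**
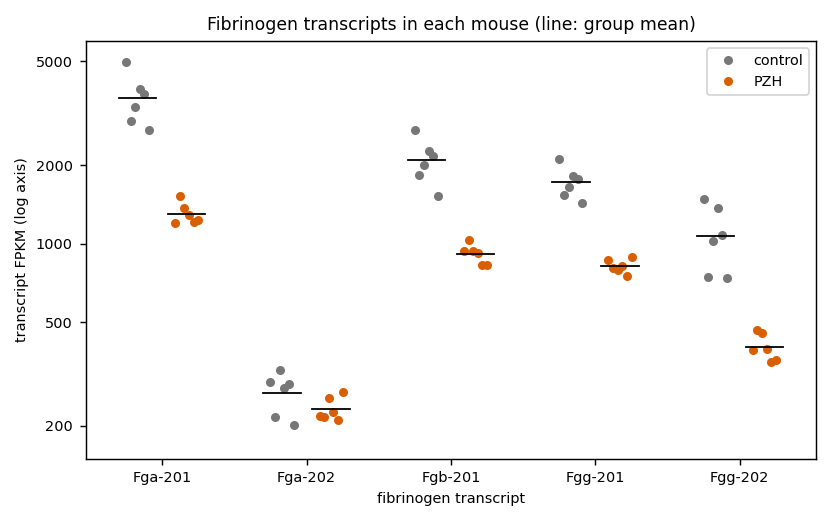
FPKM (y axis, log scale) of the 5 listed fibrinogen transcripts (x axis) in each control mouse (grey) and PZH mouse (orange), with a line at the group mean. Fga-201, Fgb-201, Fgg-201 and Fgg-202 are lower in all PZH mice than in all control mice, while the dots of Fga-202 overlap.

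A lncRNA, Gm30097, lies on the opposite strand at the 5′ end of Fgg (minus strand, overlapping 765 bases of the gene and 115 bases of its exons). It was measured at 1.41 to 5.67 FPKM with PZH and at 3.70 to 11.5 FPKM in controls and was not called (log2 fold change -0.77, SE 0.29, limma adjusted p = 0.083 over the lncRNA table). Libraries were strand-specific, but the strand setting of the counting is not given in the sources used here, so reads of Gm30097 and Fgg may not be told apart in the overlap.

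Among the procoagulant genes that were higher, Klkb1 stood farthest from the controls. Klkb1 encodes plasma prekallikrein, the zymogen that factor XIIa activates in the contact pathway. Klkb1 was measured at 53.9 to 68.8 FPKM (median 65.2) with PZH and at 19.4 to 39.0 FPKM (median 25.8) in controls, a 2.33-fold difference of the means (log2 fold change 1.23, SE 0.15, limma adjusted p = 5.9e-05). The groups did not overlap, and Klkb1 was the 1 gene of the 32 that was higher by the 2-fold rule. Its neighbour F11, 4657 bases away on the same strand of chromosome 8, encodes factor XI, a homologous protease. F11 was measured at 21.6 to 28.7 FPKM with PZH and at 18.8 to 42.6 FPKM in controls and was not called (log2 fold change -0.17, 95% interval -0.51 to 0.17). The Klkb1 promoter is shown as that of the gene with the largest rise of the 32 on the log2 scale (chr8:45294786-45295085, minus strand, RefSeq, GRCm38.p6, same capitals as above).

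Klkb1: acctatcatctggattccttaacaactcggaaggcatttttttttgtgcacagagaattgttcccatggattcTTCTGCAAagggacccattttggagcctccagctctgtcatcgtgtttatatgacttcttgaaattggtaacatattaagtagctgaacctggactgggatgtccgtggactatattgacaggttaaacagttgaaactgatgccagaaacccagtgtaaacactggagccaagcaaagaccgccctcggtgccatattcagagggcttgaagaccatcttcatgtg

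Its window held a C/EBP motif at -177 and none of the other 3 motifs.

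F13b encodes the carrier subunit B of factor XIII, the transglutaminase that cross-links fibrin. F13b was measured at 73.3 to 118 FPKM (median 92.2) with PZH and at 40.2 to 58.0 FPKM (median 45.1) in controls. The groups did not overlap (log2 fold change 0.99, SE 0.11, limma adjusted p = 3.9e-05). The means differed 2.01-fold, and the gene narrowly missed the 2-fold rule, which is applied to log2(FPKM + 1).

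F7 and F10 are neighbours on chromosome 8, 1498 bases apart on the plus strand. F7 encodes factor VII, the protease that starts coagulation together with tissue factor, and was measured at 20.9 to 27.6 FPKM (median 23.2) with PZH and at 12.6 to 19.2 FPKM (median 15.1) in controls. Every PZH mouse was above every control mouse (log2 fold change 0.58, SE 0.10, limma adjusted p = 0.00045). F10 encodes factor X, the protease of the prothrombinase complex, and was measured at 96.2 to 118 FPKM (median 111) with PZH and at 73.5 to 82.5 FPKM (median 79.2) in controls. It too had no overlap (log2 fold change 0.47, SE 0.06, limma adjusted p = 0.000108). Of its 5 transcripts, F10-202 was measured at 61.8 ± 8.60 FPKM with PZH and at 34.8 ± 6.54 FPKM in controls (SD, n = 6 each), and the other 4 were not called. The share of F10-202 in the gene was 56.5% with PZH and 44.2% in controls, with overlapping ranges (exact permutation test, two-sided, p = 0.0173).

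The other 3 higher procoagulant genes differed less. F5 encodes factor V, the cofactor of factor Xa, and was measured at 115 to 139.9 FPKM (median 133) with PZH and at 98.6 to 118 FPKM (median 107) in controls (log2 fold change 0.29, SE 0.07, limma adjusted p = 0.00364). F9 encodes factor IX, and was measured at 57.6 to 78.1 FPKM (median 66.1) with PZH and at 53.0 to 58.9 FPKM (median 55.7) in controls (log2 fold change 0.23, SE 0.07, limma adjusted p = 0.02). In both genes the lowest PZH mouse fell inside the control range. F3 encodes tissue factor, the membrane receptor of factor VII, and was the least abundant of the 32 genes in controls, at 1.24 to 1.96 FPKM (median 1.37), and at 1.69 to 2.996 FPKM (median 2.16) with PZH. Its log2 fold change was 0.42 (SE 0.10, limma adjusted p = 0.00432), and control mouse 3 lay inside the PZH range. By the estimated depth, each F3 value would stand for about 66 to 98 fragments in controls and 96 to 170 with PZH, and read counts themselves could not be recovered.

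The thrombin gene itself was not called. F2, which encodes prothrombin, was measured at 414 to 486 FPKM (median 451) with PZH and at 389.5 to 439 FPKM (median 417) in controls, with a log2 fold change of 0.11 and a 95% interval of -0.02 to 0.24. The contact factor gene F12 was measured at 67.5 to 120.3 FPKM with PZH and at 113 to 124 FPKM in controls, and the low end of the PZH range was 1 mouse. The kininogen genes Kng1 and Kng2, which encode the precursors of bradykinin, had log2 fold changes of 0.04 and -0.09. They share 4.93% of the Kng1 transcript windows of 100 bases, so part of their reads may be assigned to either. F8 (factor VIII, 0.06) and Vwf (von Willebrand factor, -0.23) were not called either, and their 95% intervals ran from -0.09 to 0.20 and from -0.51 to 0.04. With the median-ratio scale factor F2 (0.30, limma adjusted p = 0.00148) and F8 (0.23, limma adjusted p = 0.0411) were called higher.

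Of the 8 anticoagulant genes 3 were higher, 2 were lower and 3 were not called. Of the genes of secreted inhibitors and cofactors, Proz, Serpinc1 and Serpind1 were higher and Proc, Pros1 and Tfpi were not called, while Procr and Thbd, which encode membrane receptors of the protein C pathway, were lower. The median log2 fold change of the 8 was 0.16. The shares over all genes were 12.7% called higher and 32.1% called lower.

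Procr encodes the endothelial protein C receptor, which presents protein C to the complex of thrombin and thrombomodulin. It was measured at 0.73 to 1.99 FPKM (median 1.13) with PZH and at 3.85 to 8.15 FPKM (median 6.23) in controls. The mean was 5.01-fold lower with no overlap (log2 fold change -1.66, SE 0.18, limma adjusted p = 3.06e-05). By the estimated depth this would be about 35 to 97 fragments per PZH mouse and 165 to 464 per control mouse. Thbd encodes thrombomodulin and was measured at 2.83 to 4.97 FPKM (median 3.25) with PZH and at 4.79 to 12.5 FPKM (median 9.57) in controls. It was 2.55-fold lower (log2 fold change -1.11, SE 0.18, limma adjusted p = 0.000381), and the overlap came from control mouse 2 and PZH mouse 2. Of the 8 endothelial markers listed here, Pecam1 and Lyve1 were lower and 6 were not called. Their summed level was 51.8 to 80.5 FPKM with PZH and 72.7 to 84.7 FPKM in controls, and none was at 0 in any mouse. The part of endothelial content in the values of Procr and Thbd was not tested.

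The promoter of Procr is shown as that of the gene with the largest fall of the 32 on the log2 scale (chr2:155750967-155751266, plus strand, RefSeq, GRCm38.p6), and the promoter of Plaur, described further on, is shown beside it because its fall was of like size (chr7:24462233-24462532, plus strand).

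Procr: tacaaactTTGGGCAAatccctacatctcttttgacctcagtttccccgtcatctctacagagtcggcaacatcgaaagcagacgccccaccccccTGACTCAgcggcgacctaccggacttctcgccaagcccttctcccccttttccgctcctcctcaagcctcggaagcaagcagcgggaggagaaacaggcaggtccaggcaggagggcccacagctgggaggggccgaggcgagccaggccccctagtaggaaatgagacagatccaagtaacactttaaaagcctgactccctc

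Plaur: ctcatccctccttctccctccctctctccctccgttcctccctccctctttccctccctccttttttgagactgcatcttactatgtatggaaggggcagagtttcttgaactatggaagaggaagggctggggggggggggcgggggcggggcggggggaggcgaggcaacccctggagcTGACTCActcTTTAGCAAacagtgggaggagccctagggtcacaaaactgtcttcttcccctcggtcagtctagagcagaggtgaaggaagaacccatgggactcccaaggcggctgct

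Both held the same AP-1 letters, TGACTCA, at -154 in Procr and at -69 in Plaur, and both held a C/EBP motif, at -242 and at -59. Of the other 4 genes with an AP-1 motif, F3 was higher, Fgb was lower and F2 and Hrg were not called.

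Proz encodes protein Z, a vitamin K-dependent cofactor for the inhibition of factor Xa, and lies 4237 bases downstream of F10. It was measured at 89.4 to 111 FPKM (median 97.4) with PZH and at 42.7 to 65.3 FPKM (median 53.4) in controls. The groups did not overlap (log2 fold change 0.85, SE 0.10, limma adjusted p = 3.53e-05), so all 3 genes of the F7, F10 and Proz cluster were higher without overlap, against 6.46% of all genes. Serpind1 encodes heparin cofactor II, an inhibitor of thrombin, and was measured at 258 to 378 FPKM (median 288) with PZH and at 169.8 to 238 FPKM (median 185) in controls, also without overlap (log2 fold change 0.61, SE 0.11, limma adjusted p = 0.000702). Serpinc1 encodes antithrombin, the main plasma inhibitor of thrombin and factor Xa. It was measured at 183 to 268 FPKM (median 205) with PZH and at 128 to 190.1 FPKM (median 164) in controls (log2 fold change 0.41, SE 0.12, limma adjusted p = 0.0139). The lowest PZH mouse of Serpinc1 lay within the control range, and the call was lost when the most abundant transcript stood for the gene (limma adjusted p = 0.0546). Another of its transcripts, Serpinc1-205, was higher by the 2-fold rule but not at the adjusted threshold (limma adjusted p = 0.071).

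Proc encodes protein C and was measured at 122 to 144 FPKM (median 134) with PZH and at 113 to 129 FPKM (median 118) in controls. It lay just outside the threshold (log2 fold change 0.15, SE 0.06, limma adjusted p = 0.0531) and was called without PZH mouse 1 (limma adjusted p = 0.0196), without control mouse 2 (0.0494) or without control mouse 5 (0.0448). Pros1, which encodes protein S, the cofactor of activated protein C, had means of 19.6 FPKM with PZH and 19.5 FPKM in controls, with a 95% interval of the log2 fold change from -0.18 to 0.22. Tfpi, which encodes the inhibitor of the complex of tissue factor and factor VIIa, was measured at 3.83 to 5.42 FPKM with PZH and at 3.60 to 5.09 FPKM in controls (log2 fold change 0.16, 95% interval -0.03 to 0.36). It was called without PZH mouse 4 (limma adjusted p = 0.0421). With the median-ratio scale factor Proc and Tfpi were called higher.

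**Figure D4:**
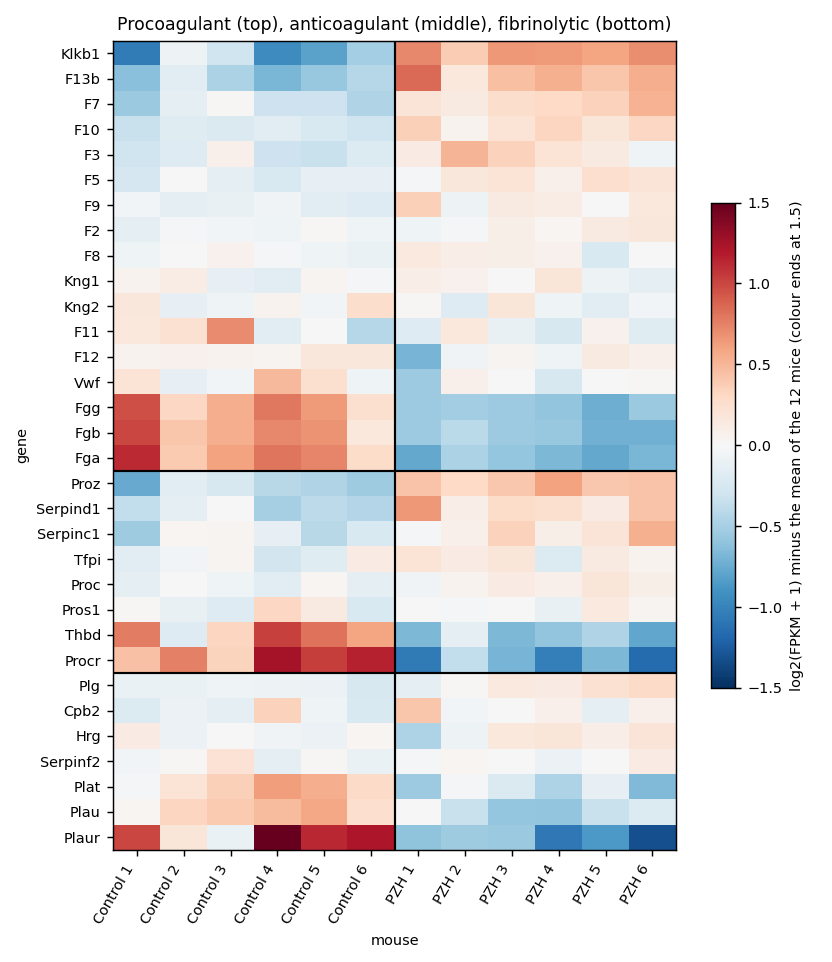
Log2(FPKM + 1) of each gene (y axis) in each mouse (x axis), as the difference from the mean of the 12 mice, red above it and blue below it, with lines between the classes and between the groups. For called genes such as Fga, Klkb1, Proz and Procr the colour changes side at the line between control and PZH mice, and control mice 2 and 3 are paler than the other control mice for Klkb1, F7, Thbd and Plaur.

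The 7 fibrinolytic genes comprised 1 that was higher (Plg), 3 that were lower (Plat, Plau and Plaur) and 3 that were not called (Serpinf2, Cpb2 and Hrg), with a median log2 fold change of 0.01. The 3 lower genes encode both plasminogen activators and the urokinase receptor. All 3 had no overlap between the groups, while 17.9% of all genes were lower without overlap. Calls over all genes were 12.7% higher and 32.1% lower.

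Plaur encodes the receptor that holds urokinase at the cell surface. Plaur was measured at 0.39 to 1.40 FPKM (median 1.09) with PZH and at 2.24 to 8.82 FPKM (median 6.26) in controls, a 5.62-fold difference of the means (log2 fold change -1.65, SE 0.26, limma adjusted p = 0.000278). It had the widest relative spread of the 32 genes, with a coefficient of variation of 41.9% with PZH and 45.1% in controls, and an estimated 18 to 82 fragments per PZH mouse and 91 to 473 per control mouse. Plau encodes urokinase and was measured at 1.25 to 2.35 FPKM (median 1.67) with PZH and at 2.44 to 4.04 FPKM (median 3.32) in controls (log2 fold change -0.68, SE 0.11, limma adjusted p = 0.000433). Plat encodes tissue plasminogen activator and was measured at 2.47 to 4.44 FPKM (median 3.37) with PZH and at 4.44 to 7.49 FPKM (median 5.86) in controls (log2 fold change -0.67, SE 0.13, limma adjusted p = 0.00126). The highest PZH mouse and the lowest control mouse were almost level for Plat, at 4.439 and 4.445 FPKM.

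Macrophages, neutrophils and stellate cells can also express urokinase or its receptor. Of 6 macrophage markers, Clec4f and Csf1r were higher and Cd68 and Marco were lower, and their sum was 106 to 158 FPKM with PZH and 108 to 158 FPKM in controls. That sum joins opposite changes, with means for Marco of 9.46 FPKM with PZH and 41.9 in controls, and for Clec4f of 34.0 and 22.7. Of 4 neutrophil markers, Csf3r was lower, and the sum was 13.1 to 139 FPKM (median 19.1) with PZH and 18.3 to 62.4 FPKM (median 30.3) in controls. In the PZH group S100a8 reached 76.0 FPKM beside a median of 7.04 FPKM. Of 6 stellate cell and fibroblast markers, Reln was higher and Des was lower, and the sum was 227 to 284 FPKM with PZH and 176 to 264 FPKM in controls. Most of it was Dcn, with a mean of 184 of 261 FPKM with PZH and 170 of 233 FPKM in controls. Of 5 platelet markers, Pf4 was lower, and the sum was 3.85 to 7.38 FPKM with PZH and 6.63 to 9.13 FPKM in controls. None of 4 bile duct markers was called, and Epcam was listed at 0 in at least 1 control mouse. Their part in the values of Plau and Plaur was not tested.

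Plg encodes plasminogen and was measured at 327 to 438 FPKM (median 394) with PZH and at 304 to 343 FPKM (median 337) in controls (log2 fold change 0.22, SE 0.07, limma adjusted p = 0.0273). PZH mouse 1 lay within the control range. The call was lost with a pseudocount of 0.1 (limma adjusted p = 0.0542), with equal FPKM sums (0.116) and when PZH mouse 3, 4, 5 or 6 or control mouse 6 was left out, where the adjusted p reached 0.0631. Serpinf2 encodes α2-antiplasmin, the main inhibitor of plasmin, and was measured at 244 to 283 FPKM (median 259) with PZH and at 238 to 303 FPKM (median 258) in controls (log2 fold change 0.01, 95% interval -0.14 to 0.15). Cpb2 encodes the carboxypeptidase TAFI, which makes fibrin less open to plasmin, and was measured at 137 to 203 FPKM (median 156) with PZH and at 129 to 192 FPKM (median 139.9) in controls (log2 fold change 0.13, 95% interval -0.11 to 0.37). Hrg, which encodes a plasma protein that binds plasminogen, had a log2 fold change of 0.03 (95% interval -0.20 to 0.25). Hrg, Kng2 and Kng1 lie in a row on chromosome 16, and none of the 3 was called.

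Of the 67 transcripts, 2 were higher by the 2-fold rule (Klkb1-201 and Serpinc1-205), against 1.24% of all 29883 protein-coding transcripts. Another 7 were lower by it (Fga-201, Fgb-201, Fgg-201, Fgg-202, Procr-201, Thbd-201 and Plaur-201), against 1.99%. In the genes with a single listed transcript the FPKM values of gene and transcript are the same, while the p-values come from separate fits. Plg was called as a gene (limma adjusted p = 0.0273), and its transcript Plg-201 was not (limma adjusted p = 0.0593).

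Which control mouse lay nearest the PZH group was counted over the 19 called genes. Control mouse 3 was nearest to the PZH mean in 7 of them and control mouse 2 in 5, control mice 1 and 6 in 3 each, control mouse 4 in 1 and control mouse 5 in 0. Control mouse 6 was nearest for the fibrinogen chains, control mouse 2 for Klkb1, F13b, Proz, Thbd and F5, and control mouse 3 for F7, Procr, Plaur and 4 others.

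Of 28 further genes of coagulation and fibrinolysis, listed by function, 25 were in the table and 4 were higher, 9 were lower and 12 were not called, with a median log2 fold change of -0.03, against 12.7% higher and 32.1% lower over all genes. With the median-ratio scale factor 11 were higher and 6 lower, against 19.8% higher and 19.3% lower over all genes on that scale. The higher count fell to 2 with equal FPKM sums and when PZH mouse 4, 5 or 6 or control mouse 1 or 6 was left out. On the deposited scale those past both the adjusted threshold and the 2-fold rule were all lower. F13a1, which encodes the catalytic subunit of factor XIII, was measured at 0.43 to 1.09 FPKM with PZH and at 1.97 to 4.15 FPKM in controls (log2 fold change -1.38, SE 0.13, limma adjusted p = 1.74e-05), opposite in direction to F13b. Anxa2 and S100a10, which encode the 2 subunits of a plasminogen receptor, were lower without overlap (log2 fold changes -1.69 and -1.02, SE 0.22 and 0.16). Vkorc1l1, a paralog of the vitamin K epoxide reductase gene, had overlapping groups (log2 fold change -1.67, SE 0.58, limma adjusted p = 0.0336), and its call was lost with the median-ratio scale factor (0.0654), with its most abundant transcript (0.157) and without PZH mouse 2, 3, 4 or 6 or control mouse 2 or 4 (up to 0.0718).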

How the data were processed

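Liver RNA of 6 PZH and 6 control mice was extracted with TRIzol and sequenced by the authors as strand-specific, ribosomal-RNA-depleted libraries with paired reads of 150 bases. The authors trimmed reads with Trimmomatic, used HISAT2 2.1.0 for mapping to GRCm38 and StringTie 1.3.5 for assembly on Ensembl 95. The authors deposited linear FPKM tables with 1 column per mouse, 1 of 29883 protein-coding transcripts and 1 of 1432 lncRNA transcripts. The strand setting is not given in the sources used here.

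FPKM was summed per gene by GENCODE M21, which held 29876 and 1431 of these transcripts. limma 3.58.1 in R 4.3.3 was fitted to log2(FPKM + 1) of the 12 mice without covariates, and p-values were adjusted over the whole table (Benjamini-Hochberg). Because a pseudocount of 1 is added, fold changes of low genes are understated. Only 1.98% to 2.51% of low values per mouse were whole multiples of the estimated step (within 0.1%), so read counts could not be had and counting intervals are not given. Single values were compared by exact permutation, two-sided. Other steps used Python 3.11.15 (pandas 2.3.3, numpy 2.4.6) and figures matplotlib 3.10.9. In simulated data with 14188 genes, 93% of 100 genes changed by 1 and 58% of 100 changed by 0.5 (log2) were recovered, and 8 unchanged genes were called. The simulation used normal draws, changed no other genes and held no shift of the table. In the data 12.7% of genes were called higher, 32.1% were called lower and the median was -0.11, so these rates may not hold there.

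The 32 genes, the further genes, the marker lists and the motifs were chosen with earlier results of these data known. Every one of the 32 is named. The lowest, median and highest values are given for the called genes and for those that set the rate of each class, and further genes are named where they passed both thresholds. Of the lower ones, 1 gene is not reported here by name. The alternatives were a median-ratio scale factor, equal FPKM sums, a pseudocount of 0.1, only genes with a mean of at least 1 FPKM, a mean-variance trend, the mouse number as a block, the most abundant transcript of a gene and each mouse left out in turn.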

Additional observations from a re-analysis of the deposited data

Results flagged for a closer look

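Of 64 groups of 6 mice (32 genes in both groups), 6 held 1 mouse whose gap to its nearest neighbour, relative to the group's range, was over Dixon's 95% critical value, and chance gives about 1 in 20 such groups. Control mouse 3 had 1.96 FPKM of F3, and the other control mice had 1.24 to 1.47. PZH mouse 1 had 67.5 FPKM of F12 beside 105 to 120.3 in the other PZH mice, and 203 FPKM of Cpb2 beside 137 to 160.1. PZH mouse 5 had 1101 FPKM of Fgg beside 1213 to 1274. Control mouse 6 had 304 FPKM of Plg beside 335 to 343, and control mouse 4 had 192 FPKM of Cpb2 beside 129 to 145. F12 and Cpb2 were not called with or without any 1 mouse, F3 and Fgg were called in each of these fits, and Plg lost its call without control mouse 6 (limma adjusted p = 0.061).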

How the results depend on the processing

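Every call of the 32 genes kept its direction under all alternatives. Leaving out genes below a mean of 1 FPKM, or a mean-variance trend, changed none of the 32 calls. The 2-fold rule gave 1 higher gene, and 2 with a pseudocount of 0.1, 3 with the median-ratio scale factor and 1 to 2 when 1 mouse was left out (2 without PZH mouse 2 or 5 or control mouse 2). It gave 6 lower genes, and 3 with the median-ratio scale factor (Fga, Procr and Plaur, while Fgb, Fgg and Thbd stayed called at the adjusted threshold). For the transcripts it gave 2 higher, and 5 with a pseudocount of 0.1, 5 with the median-ratio scale factor and 1 to 3 when 1 mouse was left out (1 without control mouse 4), and 7 lower, and 4 with the median-ratio scale factor. The median-ratio scale factor, which moved the median log2 fold change of all genes from -0.11 to -0.001, added F2, F8, Proc, Tfpi and Serpinf2 (limma adjusted p = 0.0472) to the higher genes and called 2807 genes of the table higher and 2739 lower, beside 1798 and 4560 on the deposited scale.

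With the mouse number as a replicate block the count of higher transcripts by the 2-fold rule was 1, and Plg lost its call (limma adjusted p = 0.0653), while the other 31 genes kept theirs. The numbers are not stated to pair mice, and the correlation of the deviations of same-numbered mice was -0.073 to 0.076, so the block result is given here only.

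The share differences of Fga-201, Vwf-203 and F10-202 kept an exact permutation p under 0.05 without each mouse (added after the data were seen). Low levels limit precision, with an estimated 18 to 82 fragments per PZH mouse for Plaur, as read counts could not be recovered.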

Other observations

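The following values were picked out after the data were seen. Proz and the gene of its partner inhibitor moved apart. Serpina10, which encodes the protein Z-dependent protease inhibitor, was measured at 56.4 ± 5.35 FPKM with PZH and at 97.6 ± 20.3 FPKM in controls (SD, n = 6 each), with no overlap (log2 fold change -0.76, SE 0.12, limma adjusted p = 0.000268), while Proz was higher without overlap. Of the genes of the vitamin K cycle that clotting factors depend on, Ggcx, the γ-glutamyl carboxylase gene (log2 fold change 0.30, SE 0.10, limma adjusted p = 0.0281), and Vkorc1, the epoxide reductase gene (0.51, SE 0.14, limma adjusted p = 0.0119), were higher with overlapping groups. Vkorc1l1, the paralog of Vkorc1, went the other way (log2 fold change -1.67, limma adjusted p = 0.0336), with the lost calls given above. Under the 19 alternatives Vkorc1 and Serpina10 stayed called, and Ggcx lost its call in 8, with equal FPKM sums and without PZH mouse 4, 5 or 6 or control mouse 1, 4, 5 or 6 (limma adjusted p up to 0.0687).

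Vwf was not called as a gene, but the share of its long transcript Vwf-203 (52 exons, 8834 bases) was 84.3% ± 3.22 (SD, n = 6) with PZH and 92.3% ± 2.32 (SD, n = 6) in controls, without overlap (exact permutation test, two-sided, p = 0.0022, the smallest value the test can give). The rest was Vwf-202 (10 exons, 2184 bases), at a mean of 0.36 FPKM (0.19 to 0.51) with PZH and 0.21 FPKM (0.11 to 0.27) in controls. The share thus rests on a transcript at a very low level. Neither Vwf-203 (limma adjusted p = 0.102) nor Vwf-202 (limma adjusted p = 0.145) was called. Proc-201 and Proc-206, which have 9 exons each and 1566 and 1575 bases, varied widely between mice of both groups. Proc-201 was listed at 0 in 2 mice and made up 0% to 84.3% of the gene with PZH and 0% to 84.7% in controls, while the sum over the gene stayed within 113 to 144 FPKM in all 12 mice. In PZH mouse 3 and control mice 2, 3 and 6, Proc-201 was at most 0.005 FPKM and Proc-206 was at 107 to 128 FPKM. In the other mice Proc-201 was at 96.1 to 121 FPKM and Proc-206 at 10.5 to 13.4 FPKM.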
